A study of Mus musculus with 11 samples.

Results

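The 9 microRNAs named here as those of the blood cell lineages were followed in the liver of mice that overexpress the coactivator PGC-1β in this organ. They were taken by name from the 655 probes of the chip. The 6 leukocyte microRNAs were mmu-miR-142-3p, mmu-miR-142-5p, mmu-miR-223, mmu-miR-150, mmu-miR-342-3p and mmu-miR-342-5p, and the 3 erythroid microRNAs were mmu-miR-451, mmu-miR-144 and mmu-miR-486. The rule used no measured value, though it was set with earlier results of these data known. The species prefix is left out from here on. The livers came from 6 LivPGC-1β mice, which carry a transgene that raises PGC-1β selectively in the liver, and from 5 wild-type (WT) mice. All 11 animals were FVB/N, aged 4 months and fasted overnight, and their sex and the promoter of the PGC-1β transgene are not given in the sources used here. Each mouse was measured on 1 array of a single Illumina microRNA bead chip, which holds no probe for the PGC-1β messenger RNA, so the transgene could not be checked in these data. On the chip the LivPGC-1β livers filled places 6 to 11 and the WT livers places 1 to 5, so position and genotype cannot be told apart.

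MicroRNAs are short RNAs that pair with messenger RNAs, mainly through their seed, the bases next to the 5′ end, and lower the output of those messengers. The liver is a blood-rich organ that also houses resident macrophages and lymphocytes, and microRNAs made almost exclusively by blood cells therefore appear in its total RNA. Both arms of the miR-142 hairpin are made in nearly all haematopoietic cells. miR-223 is a microRNA of granulocytes and other myeloid cells, and miR-150 is one of mature lymphocytes, in which it represses the transcription factor Myb. miR-342 lies within the gene Evl and is found in several leukocyte types. miR-144 and miR-451 come from 1 transcript that the erythroid factor GATA1 switches on, and miR-451 is processed by Argonaute 2 in place of Dicer. miR-486 lies within Ank1, the gene of the red cell membrane protein ankyrin-1, and is made in erythroid cells and in muscle. In bulk tissue, fewer cells of a type and less of a microRNA per cell cannot be told apart.

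The mature sequences are shown because each probe reports on 1 of them, and because the arms of miR-142 and of miR-342 are different microRNAs from the same hairpin. RefSeq (GRCm38.p6) held the mature sequence of 7 of the 9, all on the plus strand, and the capitals mark the seed, bases 2 to 8.
miR-142-3p (chr11:87756903-87756925): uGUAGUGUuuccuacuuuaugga
miR-142-5p (chr11:87756867-87756887): cAUAAAGUagaaagcacuacu
miR-223 (chrX:96242884-96242905): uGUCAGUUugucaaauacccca
miR-342-3p (chr12:108658680-108658702): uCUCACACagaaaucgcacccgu
miR-342-5p (chr12:108658638-108658659): aGGGGUGCuaucugugauugag
miR-451 (chr11:78073186-78073207): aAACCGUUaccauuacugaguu
miR-144 (chr11:78073047-78073066): uACAGUAUagaugauguacu
The 7 microRNAs carried 7 different seeds, so none of them belongs to the same seed family as another. RefSeq names them miR-142a-3p, miR-142a-5p, miR-223-3p, miR-342-3p, miR-342-5p, miR-451a and miR-144-3p. The chip used older names.

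The hairpins of miR-451, miR-144 and miR-142 are printed with the mature sequences listed above in capitals. Any other mature product of a hairpin is left in lower case, so the capitals do not show how many products a hairpin gives.
Mir451a (chr11:78073170-78073241): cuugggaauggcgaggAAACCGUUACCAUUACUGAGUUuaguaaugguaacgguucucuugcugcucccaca
Mir144 (chr11:78073005-78073070): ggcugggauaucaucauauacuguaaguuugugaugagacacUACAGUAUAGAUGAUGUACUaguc
Mir142 (chr11:87756864-87756927): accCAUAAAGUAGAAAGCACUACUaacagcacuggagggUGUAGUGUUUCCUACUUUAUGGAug
Mir144 and Mir451a are separated by 99 bases of chromosome 11 (GRCm38.p6), and the coding gene nearest to both is Eral1. In the Mir142 hairpin both arms were measured by probes of their own, one on each side of the loop. Mir342 lies inside Evl on chromosome 12 and Mir486 inside Ank1 on chromosome 8. Mir150 lies on chromosome 7, and Mir223 on chromosome X overlaps the long non-coding RNA gene F630028O10Rik.

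Values below are log2 intensities after quantile normalization over the 655 probes, and a difference is LivPGC-1β minus WT. Brightness differs between probes for reasons other than abundance, so each probe was compared with itself across mice. The median intensity before normalization was 619 to 871 on the LivPGC-1β arrays and 743 to 1036 on the WT arrays, and 444 to 508 probes were detected (detection p of 0.01 or less) on the LivPGC-1β arrays and 467 to 494 on the WT arrays. All 9 microRNAs were detected on all 11 arrays and were among the 493 probes tested with limma, whose p-values were adjusted by the Benjamini-Hochberg method across all 493 and held to a threshold of 0.05.

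The blood cell microRNAs showed no called difference between the genotypes. None of the 9 passed the adjusted threshold in limma, against 10 of the 493 probes tested (2.03%), of which 8 were higher and 2 lower in LivPGC-1β livers. At an unadjusted p under 0.05, 1 of the 9 stood out, miR-150, against 62 of the 493 probes (12.6%). For none of the 9 did the LivPGC-1β and WT mice separate without overlap, against 23 of the 493 probes (4.67%). The median difference of the 9 was 0.02, and that of all 493 probes was 0.01. miR-451 has the same normalized value on every array, as explained below, so it could not be called or separate the genotypes. These counts of the 9 therefore rest on the other 8, and the median includes the fixed 0 of miR-451.

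**Figure D1:**
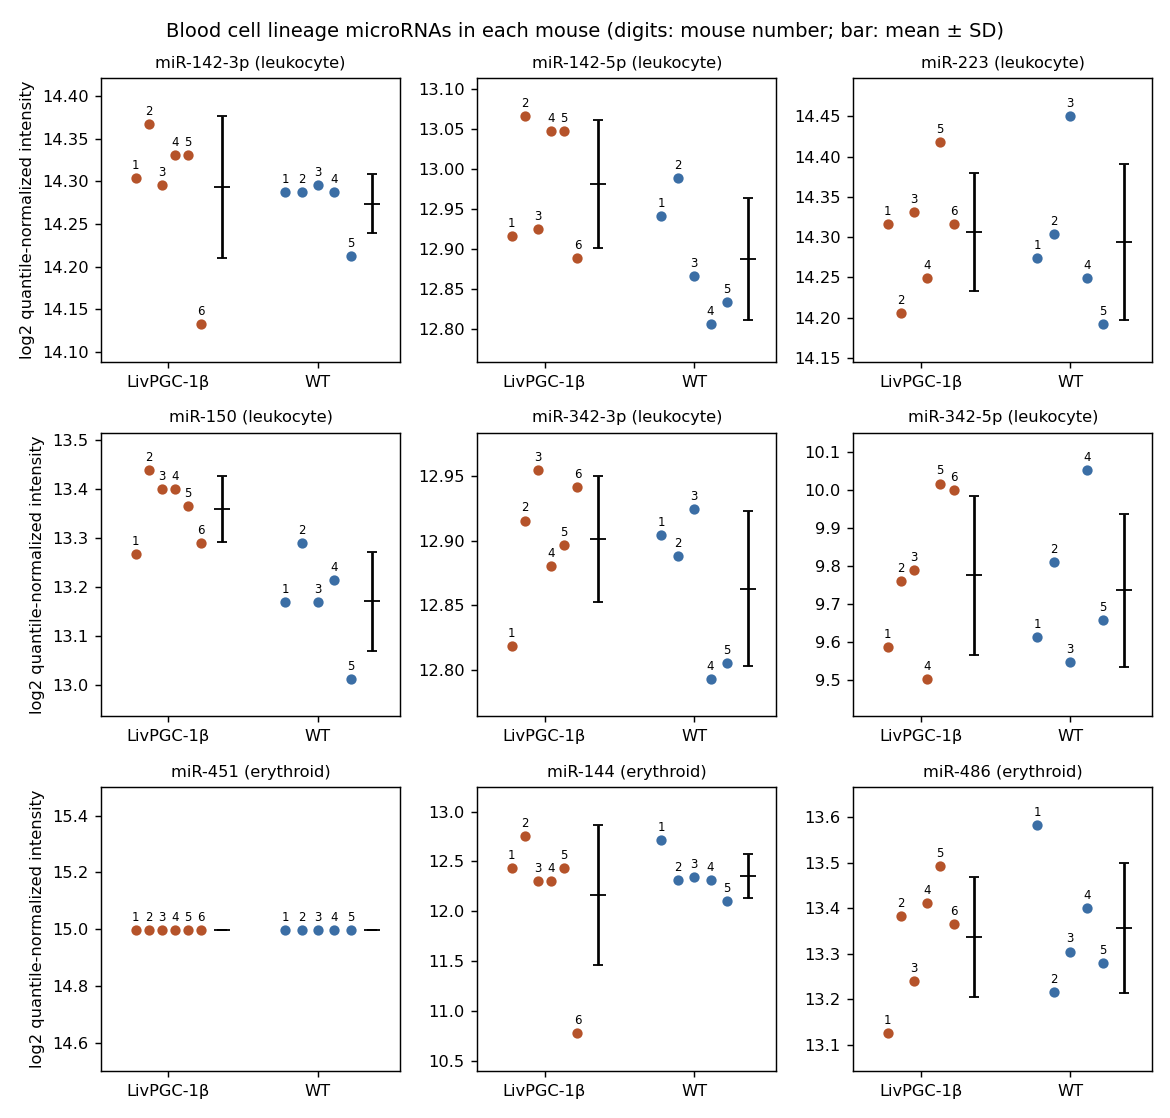
Each panel plots 1 microRNA as log2 quantile-normalized intensity (vertical axis, own range per panel) for the 6 LivPGC-1β mice and the 5 WT mice; points are mice, numbered, and bars are the mean ± SD. The groups overlap in every panel, 4 LivPGC-1β mice lie above all WT mice for miR-150, and LivPGC-1β mouse 6 lies at 10.78 for miR-144, while miR-451 has 1 value on all arrays because it was the brightest probe on each.

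miR-150, the lymphocyte microRNA, had the largest difference of the leukocyte group. Its log2 level ran from 13.27 to 13.44 with a median of 13.38 in the LivPGC-1β mice, and was 13.17, 13.29, 13.17, 13.22 and 13.01 in the WT mice. Of the 6 LivPGC-1β mice, 4 lay above every WT mouse, and the other two lay at 13.27 and 13.29, at or just below WT mouse 2. The means were 13.36 ± 0.07 in LivPGC-1β livers (SD, n = 6) and 13.17 ± 0.10 in WT livers (SD, n = 5), a difference of 0.19 (SE 0.05, 95% interval 0.07 to 0.30) or 1.14-fold. The limma p was 0.00432 before adjustment and 0.112 after it, and a two-sided exact permutation test over the 462 splits of the arrays gave p = 0.0108, where 0.00216 is the smallest p it allows. The difference was positive under all 24 alternative settings, between 0.11 and 0.35, and its adjusted p lay between 0.0618 and 0.599, so no setting called it. In the intensities as deposited, miR-150 read 9530 to 10948 (median 10243) in LivPGC-1β mice and 8213 to 10385 (median 9594) in WT mice.

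The arms of miR-142, the general marker of haematopoietic cells, overlapped between the genotypes. miR-142-3p ran from 14.13 to 14.37 (median 14.32) in the LivPGC-1β mice, and was 14.29, 14.29, 14.30, 14.29 and 14.21 in the WT mice. Its mean was 14.29 ± 0.08 in LivPGC-1β and 14.27 ± 0.03 in WT livers, and the difference was 0.02 (SE 0.04, 95% interval −0.07 to 0.11, limma adjusted p = 0.893). Of the 6 LivPGC-1β mice, 4 lay above every WT mouse and mouse 6 had the lowest value of all. Without mouse 6 the LivPGC-1β mean was 14.33 ± 0.03 and the difference 0.053 (SE 0.028, limma adjusted p = 0.444), the highest of the values with 1 mouse left out, which began at 0.0046. miR-142-5p ran from 12.89 to 13.07 (median 12.98) in the LivPGC-1β mice, and was 12.94, 12.99, 12.87, 12.81 and 12.83 in the WT mice. LivPGC-1β mice 2, 4 and 5 lay above all WT mice, and the other three lay within the WT range. The means were 12.98 ± 0.08 in LivPGC-1β and 12.89 ± 0.08 in WT livers, with a difference of 0.09 (SE 0.05, 95% interval −0.01 to 0.20, limma adjusted p = 0.443). The exact permutation p was 0.649 for the 3p arm and 0.0823 for the 5p arm (two-sided).

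miR-223, the myeloid microRNA, also overlapped fully. It ran from 14.21 to 14.42 (median 14.32) in the LivPGC-1β mice, and was 14.27, 14.30, 14.45, 14.25 and 14.19 in the WT mice. The highest and the lowest value both belonged to WT mice, numbers 3 and 5. The difference in means was 0.01 (SE 0.05, 95% interval −0.10 to 0.13, limma adjusted p = 0.95), and the exact permutation p was 0.810 (two-sided).

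The arms of miR-342 did not separate the genotypes either. miR-342-3p ran from 12.82 to 12.95 (median 12.91) in the LivPGC-1β mice, and was 12.90, 12.89, 12.92, 12.79 and 12.81 in the WT mice. Its difference was 0.04 (SE 0.04, 95% interval −0.04 to 0.12, limma adjusted p = 0.673). miR-342-5p, the dimmest of the 9 probes at ranks 290 to 345 of 655, ran from 9.50 to 10.02 (median 9.77) in the LivPGC-1β mice, and was 9.61, 9.81, 9.55, 10.05 and 9.66 in the WT mice. Its groups covered the same range, with a difference of 0.04 (SE 0.12, 95% interval −0.22 to 0.30, limma adjusted p = 0.917). The SD of miR-342-5p over all mice was 0.20 and that of miR-342-3p 0.06, against a median of 0.17 for the 493 probes, so a change of a given size was less well resolved on the 5p probe.

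miR-451, the red cell microRNA that bypasses Dicer, was the brightest of the 655 probes on all 11 arrays. Quantile normalization gives the brightest probe of every array the same value, so miR-451 was set to 15.00 in every mouse and no difference could appear. Its test in that scale therefore carries no information. In the intensities as deposited it read 30931 to 34083 (median 31956) in LivPGC-1β mice and 31841 to 35124 (median 32971) in WT mice. On the log2 scale these were 14.98 ± 0.06 in LivPGC-1β and 15.02 ± 0.05 in WT livers, a difference of −0.04 with an exact permutation p of 0.221 (two-sided, not normalized). Without normalization the median difference of all 493 probes was −0.14, so the miR-451 probe lay 0.09 above that shift, while under cyclic loess its difference was −0.03 (SE 0.03), at the median of all probes of −0.02.

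miR-486, of erythroid cells and muscle, overlapped between the genotypes. It ran from 13.12 to 13.49 (median 13.37) in the LivPGC-1β mice, and was 13.58, 13.22, 13.30, 13.40 and 13.28 in the WT mice. LivPGC-1β mouse 1 had the lowest value and WT mouse 1 the highest. The difference was −0.02 (SE 0.08, 95% interval −0.20 to 0.16, limma adjusted p = 0.947). The striated muscle microRNAs miR-1, miR-133a, miR-133b and miR-206 had a mean log2 level of 8.57 to 8.78 in 5 LivPGC-1β mice and 10.09 in LivPGC-1β mouse 4, against 8.45 to 9.03 in 4 WT mice and 12.71 in WT mouse 1 (miR-1 itself was detected on 1 array). Without WT mouse 1 the miR-486 difference was 0.04, and the part of muscle RNA in the miR-486 signal was not tested.

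miR-144, the partner of miR-451, had the widest spread of the 9, on account of 1 mouse. It ran from 10.78 to 12.75 (median 12.37) in the LivPGC-1β mice, and was 12.71, 12.31, 12.34, 12.31 and 12.11 in the WT mice. LivPGC-1β mice 1 to 5 lay at 12.30 to 12.75, within or just above the WT range, and mouse 6 lay alone at 10.78. The means were 12.17 ± 0.70 in LivPGC-1β and 12.36 ± 0.22 in WT livers, with a difference of −0.19 (SE 0.31, 95% interval −0.87 to 0.49, limma adjusted p = 0.817, exact permutation p = 0.823). Without mouse 6 the LivPGC-1β mean was 12.44 ± 0.18 and the difference turned to 0.09 (limma adjusted p = 0.790). Of the 493 probes tested, 33 varied more over the 11 mice than miR-144 did.

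The low miR-144 value of LivPGC-1β mouse 6 was not seen in miR-486, or in miR-451 in the intensities as deposited. The normalized miR-451 value is fixed and could not show it, and under cyclic loess miR-451 and miR-144 had r = 0.88 over the mice. The second miR-144 probe was low in mouse 6 to a smaller extent. Its miR-144 value lay 1.33 below that of the next lowest array on the log2 scale (2.51-fold), and the intensity as deposited was 1538, which is 29.4% of the median of the other arrays. In the same mouse miR-486 stood at 13.36, inside the range of the other mice, and miR-451 at an intensity of 32570. The chip holds a second probe named miR-144:9.1, whose suffix the sources used here do not explain. It read 12.66 in mouse 6, which was 0.19 below the next lowest array, and its intensity there was 74.2% of the median of the other arrays. The miR-144 level minus the miR-144:9.1 level, both on the log2 scale, was −1.88 in mouse 6, and −0.76 to −0.46 on the other 10 arrays. Over all mice miR-144:9.1 differed by −0.02 between the genotypes (SE 0.11, limma adjusted p = 0.962). On that array 3 probes, miR-144, miR-343 and 1 candidate small RNA from sequencing, lay more than 1 log2 unit below every other array, and no other array had a probe that low. Probes more than 1 log2 unit above every other array were found elsewhere, 1 in LivPGC-1β mouse 1, 4 in LivPGC-1β mouse 4, 5 in WT mouse 1, 8 in WT mouse 3 and 11 in WT mouse 5, and none of them was 1 of the 9.

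**Figure D2:**
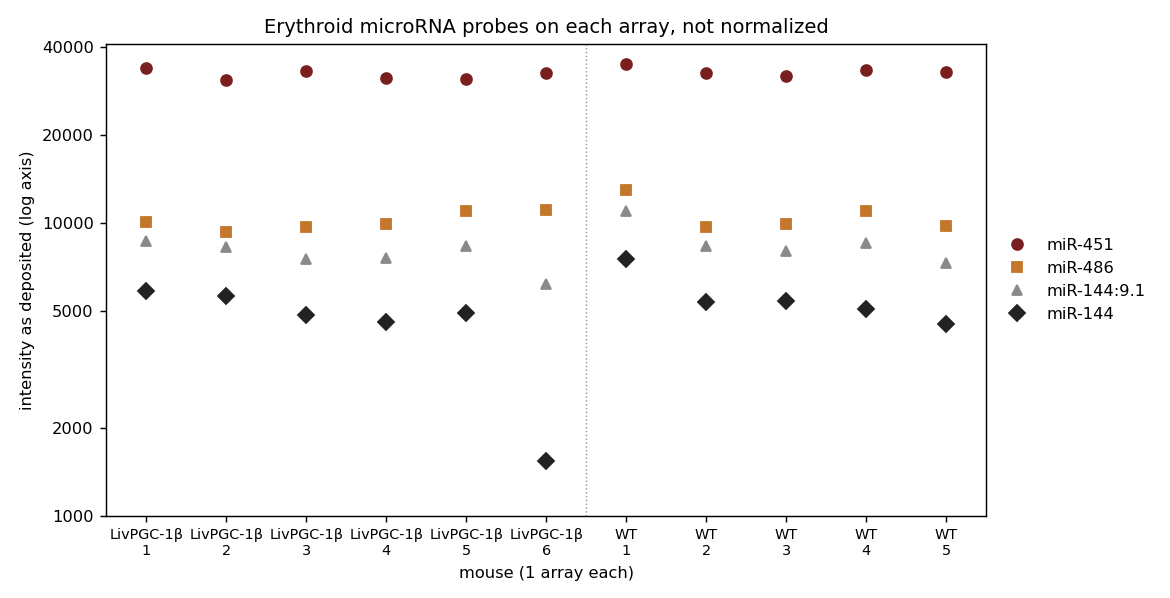
Intensity as deposited (vertical log axis) of the miR-451, miR-486, miR-144:9.1 and miR-144 probes on each of the 11 arrays, LivPGC-1β mice left of the dotted line and WT mice right of it, 1 mouse per position. In LivPGC-1β mouse 6 only miR-144 drops far, to 1538, while miR-451 stays at 32570.

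The means over the 6 leukocyte and over the 3 erythroid microRNAs summarize these probes on each array and were not tested. The erythroid mean includes the fixed miR-451 value, so only miR-144 and miR-486 can move it. The leukocyte mean was 12.87 to 13.01 in LivPGC-1β mice and 12.79 to 12.93 in WT mice on the log2 scale. The erythroid mean was 13.05 to 13.71 in LivPGC-1β mice and 13.46 to 13.76 in WT mice, and its lowest value, 13.05 in LivPGC-1β mouse 6, stood beside the low miR-144 value of that mouse, the next lowest LivPGC-1β mouse being at 13.51. All 6 leukocyte microRNAs had a positive difference, with a median of 0.04, and none of the 3 erythroid ones did, with a median of −0.02, on values that include the fixed 0 of miR-451. In the 493 probes 263 were positive. Without normalization 5 of the 6 leukocyte differences were negative, miR-150 being the exception, in values where the median of all probes was shifted to −0.14. Relative to that shift 5 of the 6 were positive, from 0.01 for miR-342-3p to 0.25 for miR-150, and miR-342-5p was negative at −0.09.

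**Figure D3:**
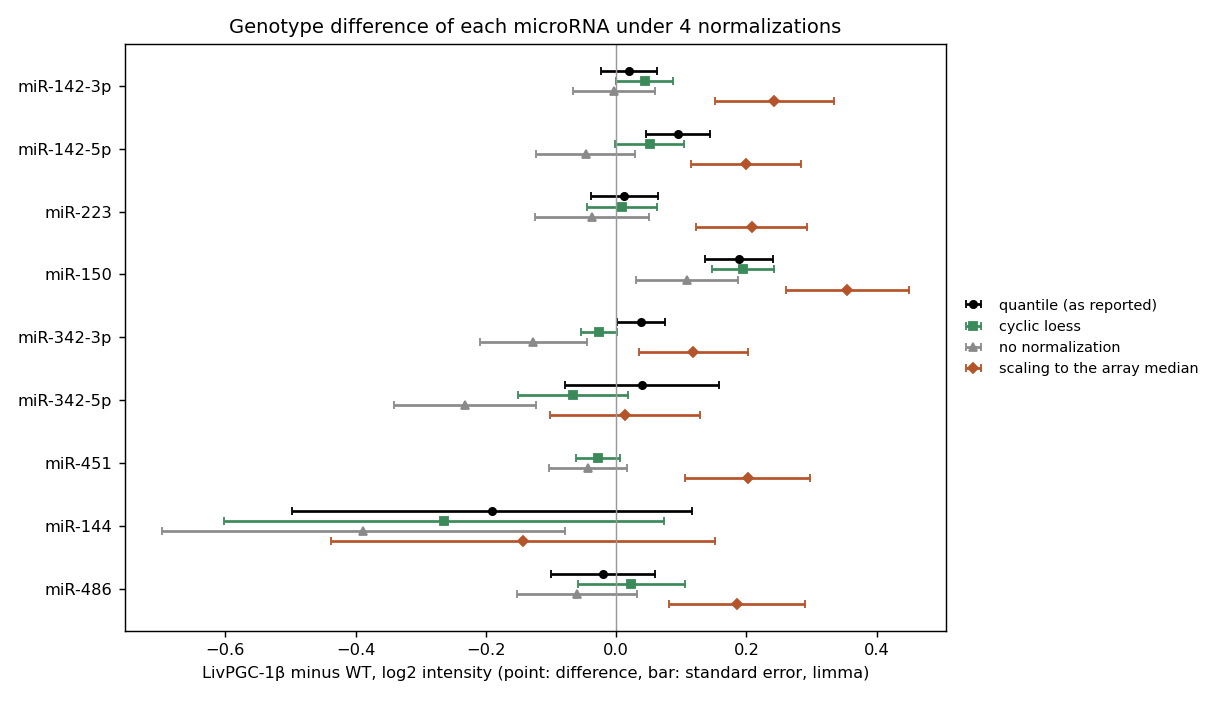
LivPGC-1β minus WT difference (horizontal axis, log2 intensity) of each of the 9 microRNAs under quantile normalization, cyclic loess, no normalization and scaling to the array median; points are limma estimates and bars their standard errors. miR-150 stays above 0 in all of them, between 0.11 and 0.35, while several others change side. No quantile point is drawn for miR-451, whose normalized value is fixed.

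Across the 11 mice the normalized levels of the microRNAs were only loosely related. Of the 28 pairs among the 8 that varied, 21 had a positive Pearson r, with a median of 0.11, against a median of 0.03 over the 120786 pairs of the tested probes other than miR-451. Those pairs include the ones with miR-126-5p, which normalization also fixed and whose r carries no information. The arms of miR-142 had r = 0.61 (permutation p = 0.0403, adjusted over the 28 pairs 0.376) and Spearman rho = 0.70 (p = 0.0190, adjusted 0.267), and r was 0.76 without the 2 mice farthest from the median and 0.63 within genotypes. The arms of miR-342 had r = 0.01 (permutation p = 0.965) and rho = −0.01, although they come from 1 hairpin. Without normalization r was 0.84 for the miR-142 arms and 0.79 for the miR-342 arms, in values where the median pair of all probes already had r = 0.46, and under cyclic loess the miR-342 arms had −0.36. miR-142-5p and miR-150 had r = 0.75 (permutation p = 0.00719, adjusted 0.101), rho = 0.75 (p = 0.00976, adjusted 0.267), and r was 0.61 without the 2 farthest mice and 0.62 within genotypes.

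Only 1 of the 28 pairs passed the adjustment, and it rested on 1 mouse. miR-142-3p and miR-144 had r = 0.88 (permutation p = 0.00112, adjusted 0.0314), but rho was 0.60 (p = 0.0561, adjusted 0.393), and r was 0.94 within genotypes. Its adjusted p was over 0.05 in 9 of 13 alternatives (range 0.00644 to 0.290). LivPGC-1β mouse 6 was the lowest for both microRNAs, and r was 0.65 without it and 0.45 without the 2 mice farthest from the median of miR-142-3p. The erythroid pair of miR-144 and miR-486 had r = 0.13 (permutation p = 0.701) and rho = 0.28 (p = 0.403), and r was 0.54 without the 2 farthest mice and 0.11 within genotypes. miR-451, fixed by the quantile normalization, was set against the others on other scales. With miR-144, the partner from its own transcript, r was 0.22 in the intensities as deposited (permutation p = 0.537, rho = 0.29). Under cyclic loess the same pair had r = 0.88 (permutation p = 0.005, adjusted over 36 pairs 0.06), but rho was 0.44 and r was 0.29 without the 2 mice farthest from the median of miR-451, so the relation rests on those mice. With miR-486, r was 0.56 in the intensities as deposited (permutation p = 0.0747) and 0.32 under cyclic loess (permutation p = 0.355).

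**Figure D4:**
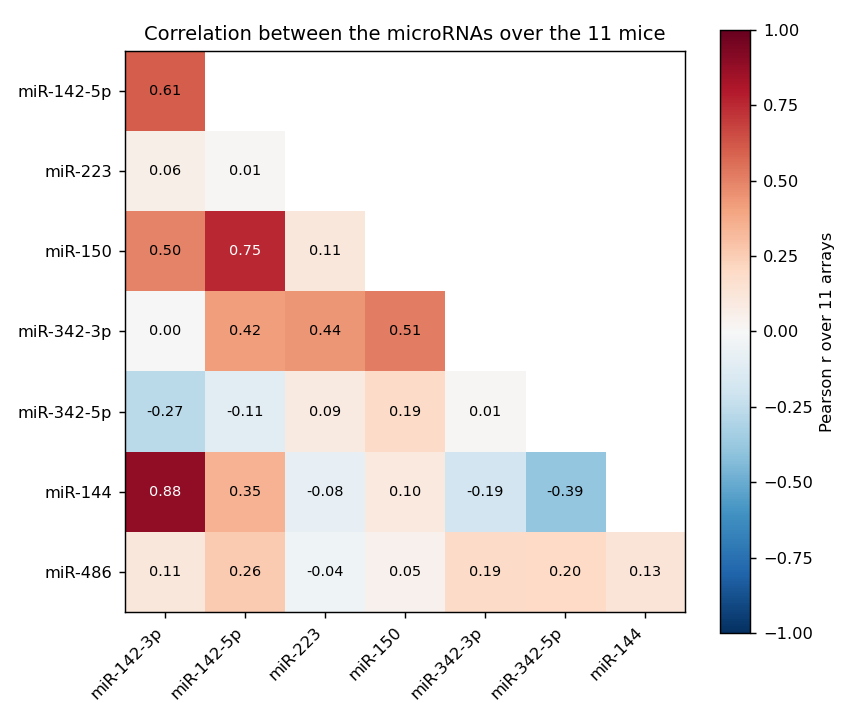
Pearson r over the 11 mice for each pair of the 8 microRNAs whose normalized level varied; colour and digits give r, from −1 (blue) to 1 (red). The highest value, 0.88, is for miR-142-3p with miR-144 and rests on LivPGC-1β mouse 6, and the arms of miR-342 stand at 0.01.

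By the same measure, the 2 probes outside the 9 that ran closest to miR-150 were miR-30c (r = 0.90 over 11 mice) and miR-214 (0.84), and those closest to miR-142-3p were miR-190 (0.88) and miR-29c (0.85). For miR-223 they were miR-34c (0.81) and miR-10a (0.75). For miR-451, on values not normalized, they were miR-126-5p (0.92) and miR-16 (0.89). These were picked as the highest of all tested probes, so the r values are given as a description only.

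Other microRNAs known from blood cells were listed for comparison. Of the 5 other leukocyte microRNAs, 1 passed the adjusted threshold and rose in LivPGC-1β livers, miR-146b, a microRNA induced by inflammatory signalling. It averaged 11.85 ± 0.20 in LivPGC-1β and 11.42 ± 0.09 in WT livers, a difference of 0.43 (SE 0.09, limma adjusted p = 0.0449), and the groups did not overlap. Its difference was positive in all 24 alternatives, but in 16 of them, the replicate block among them, the adjusted p was over 0.05 (range 0.0103 to 0.667), and leaving out any 1 of 9 of the mice ended the call. miR-155, a microRNA of activated lymphocytes and macrophages, averaged 10.98 ± 0.30 in LivPGC-1β and 10.53 ± 0.31 in WT livers (difference 0.45, adjusted p = 0.307). miR-181a, miR-146a and miR-21 differed by 0.11, 0.02 and −0.01, with adjusted p from 0.443 to 0.884. miR-21 held rank 3 or 4 on all 11 arrays, so its normalized value could hardly move. None of the 4 other microRNAs abundant in red cells or their precursors passed, with a median difference of 0.04 (miR-16 0.03, miR-92a 0.04, miR-25 −0.04 and miR-210 0.11). Of the partner arms of the 9 microRNAs only miR-150* was on the chip under the names searched, and it was detected on no array.

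Markers of other liver cells showed no called difference beside these values. The 5 hepatocyte microRNAs, among them miR-122, at 14.73 in LivPGC-1β and 14.72 in WT livers, had a median difference of −0.02 with none past the adjusted threshold. miR-122 held rank 4 or 5 on all 11 arrays, so normalization left its value little room to move, and its near-equal means say little. The endothelial pair, miR-126-3p and miR-126-5p, had a median of 0.01. miR-126-5p held rank 2 on all 11 arrays, so normalization fixed its value, as for miR-451, and its difference of 0 carries no information. The median of the pair thus rests on miR-126-3p alone. The 4 stellate cell and fibroblast microRNAs had a median of 0.08, with none past the adjusted threshold and 2 past an unadjusted p of 0.05, against 12.6% of all probes. These were miR-143 (difference 0.10, adjusted p = 0.202), whose genotypes did not overlap, and miR-214 (0.21, adjusted p = 0.317), whose difference was 0.13 without WT mouse 5. Their level on each array, as a mean of log2 values, was 13.93 to 14.02 in LivPGC-1β mice and 13.80 to 13.97 in WT mice, and its part in the miR-150 difference was not tested.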

How the data were processed

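The authors read the Illumina chip on an iScan and exported from Genome Studio the average bead intensity of 655 probes on 11 arrays; this deposited table is neither normalized nor background subtracted. The authors deposited with it a p-value of detection for every spot, which Genome Studio takes from negative control beads. A second table holds the authors' quantile-normalized intensity and was used as an alternative.

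Intensities were quantile normalized, as the methods of the study describe, and set on the log2 scale. A probe was tested where at least 5 arrays had a detection p no higher than 0.01, using limma 3.58.1 in R 4.3.3, with Benjamini-Hochberg adjustment. Exact permutation tests used all 462 splits of the arrays, and correlations 100000 permutations (Python 3.11.15). The methods name no test for the arrays, so limma was a choice made here. The design fixed 36 pairs of microRNAs for correlation, of which 28 were tested, since miR-451 is constant after normalization. The number of arrays limits the precision.

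The 9 microRNAs and all comparison lists were chosen with earlier results of these data known. The text names the 9, list members and, for 4 of them, the 2 probes with the highest r. miR-144:9.1 and the other probes low in LivPGC-1β mouse 6 were named after their values were seen. The alternatives were other normalizations, background, filters and variance models, a replicate block, chip position and mice left out.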

Additional observations from a re-analysis of the deposited data

Results flagged for a closer look

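Within the mice of 1 genotype, a single animal stood far from the rest in 3 of the 18 groups examined (9 microRNAs in each genotype, with miR-451 in the intensities as deposited), a pattern of which chance alone gives about 1 in 20. For miR-144, LivPGC-1β mouse 6 was the lowest of its group at 10.78 on the log2 scale, with the next mouse at 12.30, a gap that makes up 0.77 of the whole range of the group. For miR-142-3p, the same mouse was the lowest of its group at 14.13, with the next at 14.30, a gap of 0.70 of the range. For miR-142-3p, WT mouse 5 was the lowest of the WT mice at 14.21, with the next at 14.29, a gap of 0.89 of the range, over a group whose SD was 0.03. In the intensities as deposited, miR-142-3p read 19157 in LivPGC-1β mouse 6, close to 19180 in mouse 2. It read 18765 in WT mouse 5 and 19471 in WT mouse 3. After normalization WT mice 1, 2 and 4 shared 1 value of miR-142-3p, so the rate of 1 in 20 is only a rough guide there. The 18 groups are the same 11 mice seen on 9 probes, so they are not independent. LivPGC-1β mouse 6 appears for both miR-144 and miR-142-3p. Whether 3 of 18 exceeds that rate was not tested.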

How the results depend on the processing

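None of the 9 microRNAs was called under any of the 24 alternatives, while the number of probes called among all was 10 as reported (8 higher, 2 lower), 0 without normalization, 4 after scaling to the array median (all higher), 9 under cyclic loess, 1 with the replicate block, 0 with chip position as a covariate and 3 when LivPGC-1β mouse 4 and WT mice 1, 3 and 5 were left out together. With mice left out in turn it ran from 4 to 13, being lowest without WT mouse 1 (4), LivPGC-1β mouse 1 (5) and LivPGC-1β mouse 3 (6). In the alternatives that kept quantile normalization miR-451 stayed fixed and could not be called. The median difference of all probes was −0.14 without normalization and 0.11 after scaling to the median. After that scaling 4 of the 9 had an unadjusted limma p under 0.05, against 85 of the 493 probes. They were miR-142-3p (0.24), miR-142-5p (0.20), miR-223 (0.21) and miR-150 (0.35). Without normalization it was 0 of the 9, against 86 of the 493 probes. Differences that changed sign were, without normalization, miR-142-3p (−0.0029), miR-142-5p (−0.047), miR-223 (−0.037), miR-342-3p (−0.13) and miR-342-5p (−0.23); after median scaling, miR-486 (0.19) and miR-144:9.1 (0.10); under cyclic loess, miR-342-3p (−0.027), miR-342-5p (−0.066) and miR-486 (0.023); with array weights, miR-144:9.1 (0.013); with chip position, miR-342-5p (−0.28), miR-144 (0.97) and miR-144:9.1 (0.28); and without the 4 mice named above, miR-142-3p (−0.0029), miR-342-5p (−0.10) and miR-486 (0.014). With mice left out in turn, the differences ran from −0.31 to 0.085 for miR-144, −0.066 to 0.053 for miR-144:9.1, −0.012 to 0.051 for miR-223, −0.0080 to 0.12 for miR-342-5p and −0.056 to 0.037 for miR-486. The correlation of the miR-342 arms ran from −0.15 to 0.40 with mice left out and was −0.36 under cyclic loess, and that of miR-144 with miR-486 ran from −0.065 to 0.48 and was −0.014 without normalization. The cause of these changes was not tested.

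Mice of the 2 genotypes share numbers in the labels, and same-numbered mice did not deviate together (r from −0.13 to 0.07 over the 5 numbers, and none of LivPGC-1β mice 1 to 5 matched its own number best). The values thus gave no sign that the numbers pair the mice, which the labels do not state either way. With the replicate block miR-342-5p differed by −0.0050, miR-144 by 0.087 and miR-144:9.1 by 0.045, on 5 mice of each genotype, which leaves out LivPGC-1β mouse 6.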
